A study of Mus musculus with 24 samples.

Results

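Hras, Nras, Dusp4, Dusp6, Spry2, Spry4, Etv4, Etv5 and Fosl1 were followed through DMBA-induced mammary tumors of mice fed high-fat or low-fat diets. They are Ras genes and genes that the MAP kinase pathway switches on, and they were taken by name from the array: every non-control probe annotated to 1 of the 9 genes was used. The array held 14 such probes of 39429, for 9 of 30119 genes. Of these, 12 probes for 8 genes passed the filter on low signals, and the only probe for Spry4 did not.

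Ras proteins are small GTPases that pass a signal from growth factor receptors to the kinases Raf, MEK and ERK. ERK then acts on transcription factors, and among the genes switched on are some that restrain the pathway itself. Dusp4 and Dusp6 encode phosphatases that remove the activating phosphates from ERK, and Spry2 and Spry4 encode Sprouty proteins that act upstream of it. Etv4 and Etv5 encode ETS transcription factors of the PEA3 family, and Fosl1 encodes Fra-1, a component of AP-1. Activating Ras mutations are well known in DMBA-induced mouse tumors. The arrays measured mRNA, not mutation, phosphorylation or ERK activity.

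All 24 tumors came from BALB/c mice that had received the carcinogen 7,12-dimethylbenz[a]anthracene (DMBA) by gavage around puberty, and no untreated tissue was included. Mice ate a low-fat diet throughout (LFD, 5 late tumors), a high-fat diet throughout (HFD, 3 early and 6 late), low fat in puberty and high fat as adults (LFD-HFD, 4 late), or high fat in puberty and low fat as adults (HFD-LFD, 3 early and 3 late). Early tumors therefore came only from mice fed high fat in puberty. The study describes more early and fewer LFD tumors on its arrays than the labels give, and the labels were followed. The labels name tumors but do not tie them to mice or batches, so p-values measure the spread between these tumors, and the number of arrays limits the precision. Tumors are numbered here within their group.

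Each array carried 1 tumor against a universal mouse reference RNA pooled from cell lines, and values are log2 ratios of tumor over reference. The labels put the tumor in Cy5, whereas the study's methods describe the dyes the other way round. The labels were followed, since Cy5 signals varied more between arrays than Cy3 signals (median SD 0.604 against 0.255 on the log2 scale, over 17 arrays). The arrays lay on 7 slides scanned in 3 sessions. All 3 HFD Early tumors shared a slide with no late tumor, and the 3 HFD-LFD Early tumors shared a slide with 1 late tumor. That late tumor was of another diet, so early and late tumors of the same diet lay on different slides. Onset within a diet therefore cannot be told apart from slide. On 7 arrays, all of late tumors, a block of rows was dimmed in Cy5. Values there were set missing, which left Etv4 and Nras measured in 15 of 18 late tumors by the probes that stood for them. In whole tumor RNA, fewer cells of a type and less RNA per cell cannot be told apart.

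Early tumors were compared with late tumors first, as this was the study's main contrast. Etv4 was the only member that passed the test, 2.71-fold higher in the 6 early tumors. Etv5 pointed the same way at 2.12-fold and stopped just short of the threshold. Dusp6, Hras and Nras were also higher on average, and Dusp4 lower, by differences that did not pass. Spry2 and Fosl1 differed by 0.12 and less on the log2 scale. By limma with Benjamini-Hochberg adjustment over all 20938 genes, 1 of 8 members was called at an adjusted p under 0.05, beside 17.6% of all genes tested. The share of members is thus no larger than that of the table as a whole. At an unadjusted p under 0.05 there were 3 members, Etv4, Etv5 and Hras, beside 33.5% of all genes. The median difference was 0.42 over the 8 members and -0.06 over all genes. With arrays centred on the median in place of loess, the latter became 0.22 and 4 members were called, Hras, Nras, Etv4 and Etv5. In that setting 5323 genes were called over the whole table, in place of 3676. Of all called genes, 38.8% were higher in early tumors after loess and 82.1% after median centring. The direction of each member was the same under both scalings.

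**Figure D1:**
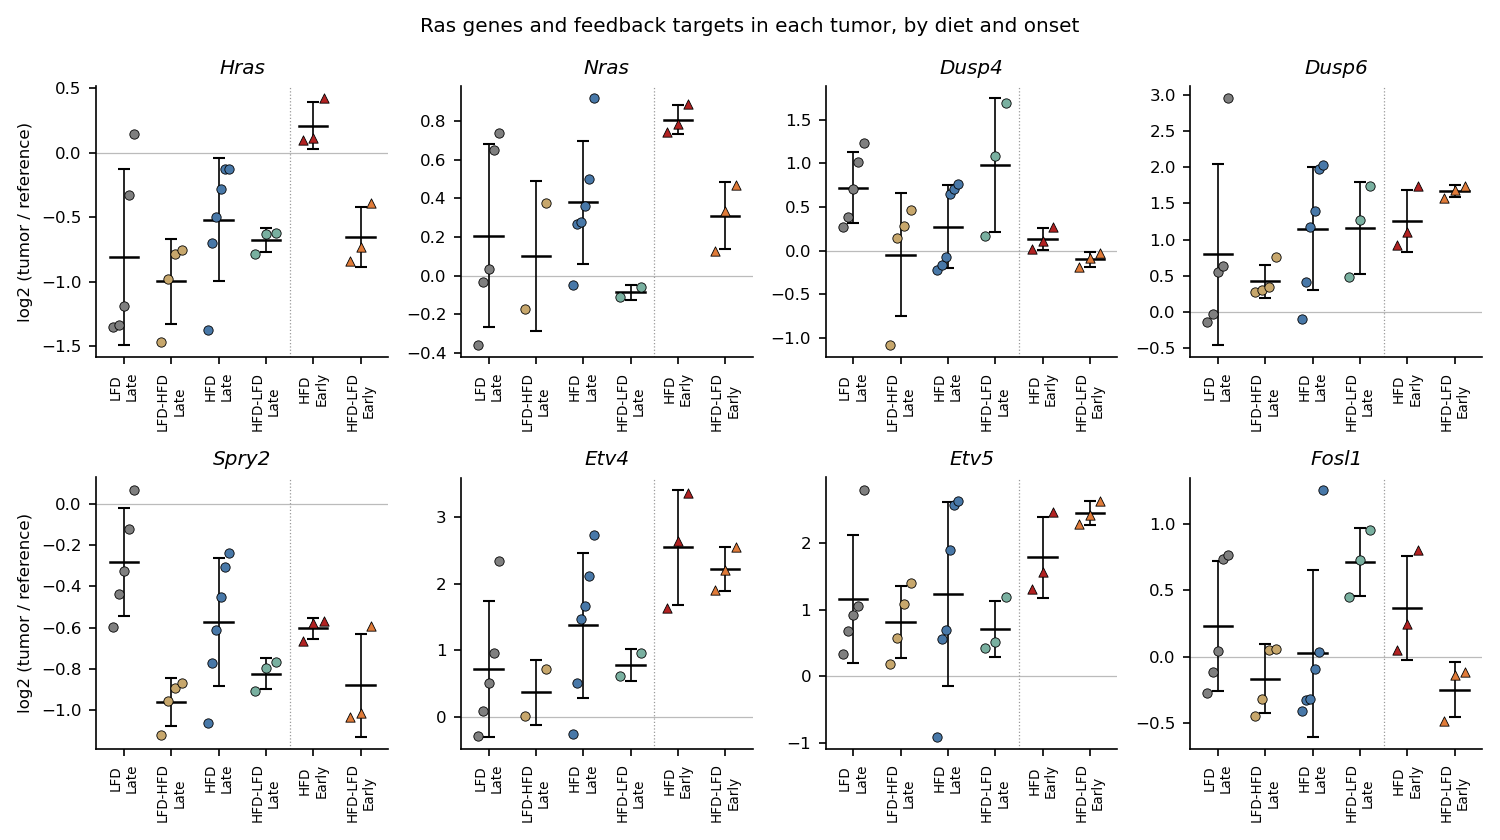
Log2 tumor over reference (vertical axis) of the 8 tested genes in each tumor, by diet and onset (horizontal axis). Circles are late and triangles early tumors, the bar is the group mean and the whiskers 1 SD; Etv4 and Nras lack 3 late tumors whose rows were dimmed. The 6 early tumors lie between 1.64 and 3.36 for Etv4, where late tumors run from -0.28 to 2.73.

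Hras was read by 3 probes, of which the brightest stood for the gene. It lies at chr7:148377296-148377355 of mouse build mm9, minus strand, and is shown because it is the Hras probe whose early and late means differed most. Of its reading frames, 1 had no stop codon.
Hras probe: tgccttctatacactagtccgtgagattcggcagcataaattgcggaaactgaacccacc
Its log2 ratios were 0.11, 0.10 and 0.42 in the 3 HFD Early tumors and -0.39, -0.84 and -0.73 in the 3 HFD-LFD Early tumors. The late tumors ran from -1.47 through a median of -0.73 to 0.15. The HFD Early tumors were above all late tumors but LFD Late 2, while the HFD-LFD Early tumors lay within the late range. The pooled early minus late difference was 0.51 (SE 0.22, adjusted p = 0.107). Within continuous HFD it was 0.73 (SE 0.30, adjusted p = 0.107), and all 3 early tumors exceeded all 6 late ones. Within HFD-LFD it was 0.03 (SE 0.35, adjusted p = 0.979). The difference between these onset changes was 0.70, with a 95% interval from -0.25 to 1.66. The dimmer probe toward the 3′ end gave a smaller early minus late difference, 0.19 (SE 0.15, adjusted p = 0.388, every probe tested on its own). Nor did this probe repeat the pattern by diet. Its means were 0.46 in HFD Early and 0.50 in HFD Late tumors. In HFD-LFD they were 0.81 in early and 0.36 in late tumors (n = 3 and 2). Its reference signal was well above background on only 11 of the 21 arrays that measured it, so this is a weak check. The remaining Hras probe failed the filter, with a reference signal over the minimum of 10 on 5 of 24 arrays.

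Nras, its close relative, was read by 3 probes along the transcript, and these disagreed. The brightest, at chr3:102871322-102871381, gave 0.75, 0.89 and 0.78 in the HFD Early tumors, 0.13, 0.47 and 0.33 in the HFD-LFD Early tumors, and a late range from -0.36 to 0.92 with a median of 0.27. Its early minus late difference was 0.34 (SE 0.17, adjusted p = 0.164). The probe at chr3:102870149-102870208 had a larger difference, 0.58 (SE 0.16), which passed when every probe was tested on its own (adjusted p = 0.0176). The probe at chr3:102868451-102868510 gave -0.01 (SE 0.16, adjusted p = 0.977). There, every early tumor was above the late median of -0.38, but 5 late tumors ran from -0.06 to 0.66 and carried the late mean to the early one. The call for Nras therefore depends on the probe.

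**Figure D2:**
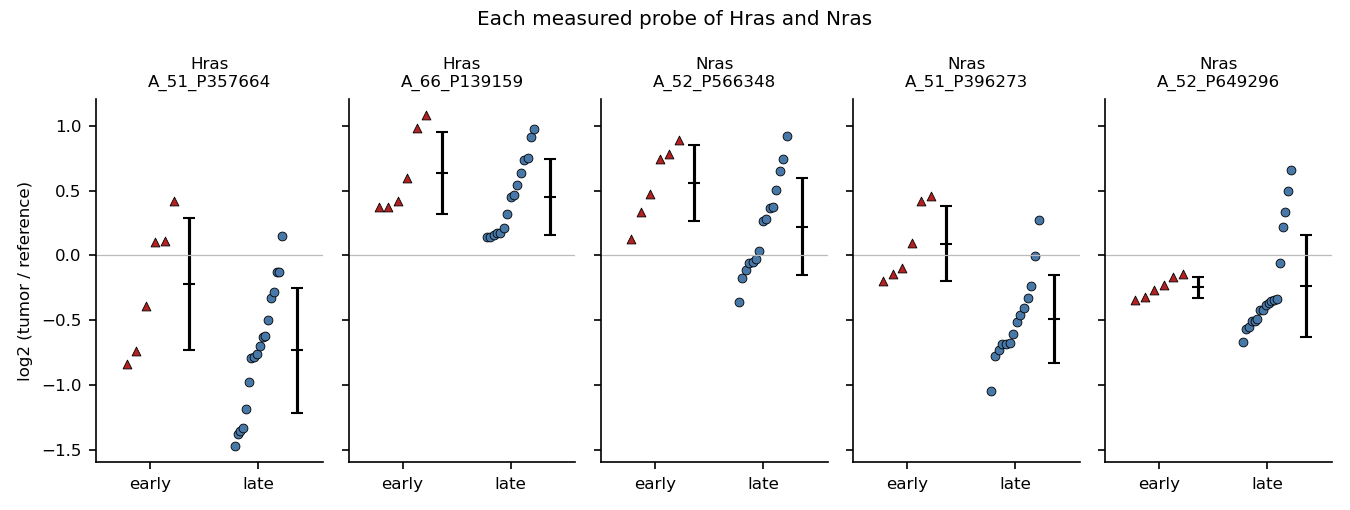
Log2 tumor over reference (vertical axis) for each probe of Hras and Nras that passed the filter, in early (triangles) and late (circles) tumors (horizontal axis). Bars are the mean and 1 SD. The 3 Nras probes differ between early and late by 0.34, 0.58 and -0.01, from the brightest as drawn from left to right. They were measured in 15, 14 and 18 late tumors.

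Dusp6, the cytoplasmic ERK phosphatase, was 1.74, 1.1 and 0.92 in HFD Early tumors and 1.74, 1.58 and 1.69 in HFD-LFD Early tumors. Late tumors ran from -0.13 to 2.95 with a median of 0.60. All 6 early tumors were above that median, and 7 of 18 late tumors reached the lowest early tumor. The difference was 0.57 (SE 0.35, adjusted p = 0.252), with a 95% interval from -0.14 to 1.28. The highest value of all belonged to a late tumor, LFD Late 4, at 2.95; the other LFD tumors lay between -0.13 and 0.64.

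Dusp4, the nuclear ERK phosphatase, went the other way. Its 6 early values were closely spaced, from -0.19 to 0.26, and none exceeded the late median of 0.43. Late tumors spread from -1.08 to 1.68. The early minus late difference was -0.43 (SE 0.25, adjusted p = 0.238). Within HFD-LFD the 3 early tumors (-0.09, -0.19 and -0.03) were all below the 3 late ones (1.08, 0.16 and 1.68), a difference of -1.08 (SE 0.39, adjusted p = 0.186). Within HFD the difference was -0.14 (SE 0.34, adjusted p = 0.811).

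Of the Sprouty genes, Spry2 was below the reference in 23 of 24 tumors, and its early and late means of -0.74 and -0.62 differed by less than their spread (difference -0.12, SE 0.15, adjusted p = 0.596). Spry4 was near background. Its probe was well above background in the tumor channel on 4 of 24 arrays and in the reference on none. The 4 tumors were LFD Late 4 (log2 ratio 1.53), HFD Late 5 (0.56), HFD Late 3 (0.35) and HFD Late 2 (0.11), all late. With no filter on low signals, Spry4 differed by 0.05 between early and late (SE 0.17, adjusted p = 0.892 over 30119 genes), which at this signal is no measure of equality.

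Etv4 was 3.36, 2.65 and 1.64 in the HFD Early tumors and 2.56, 1.90 and 2.20 in the HFD-LFD Early tumors. LFD tumors gave 0.08, 0.50, -0.28, 2.35 and 0.96. HFD Late tumors ran from -0.27 through a median of 1.57 to 2.73. The measured LFD-HFD tumors gave 0.02 and 0.71, and the measured HFD-LFD Late tumors 0.95 and 0.62. Every early tumor was above the late median of 0.71, but 4 of 15 late tumors reached the lowest early one, so the groups overlapped. The early mean was 2.38 ± 0.61 (SD, n = 6) and the late mean 0.94 ± 0.94 (SD, n = 15). The difference of 1.44 (SE 0.40) passed the test (adjusted p = 0.0172), beside 6.81% of all genes that were called higher in early tumors. A second, dimmer Etv4 probe was free of dimmed rows and gave all 18 late tumors. It differed by 1.49 (SE 0.38, adjusted p = 0.0109, every probe tested on its own).

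The Etv4 call depended on how slides entered the fit. With slide as a random block the difference was 1.47 but no longer passed (adjusted p = 0.0707). With slide as a fixed block it was 1.51 (adjusted p = 0.538), but only 1 slide held both early and late tumors, so this value sets the 3 HFD-LFD Early tumors against 1 late tumor of another diet, LFD-HFD Late 3. Within scan session 1 (3 early tumors, all HFD, and 8 late) it was 1.75 (adjusted p = 0.107). Within session 2 (3 early tumors, all HFD-LFD, and 3 late) it was 1.46 (adjusted p = 0.00956). In both sessions early and late tumors lay on different slides, except for LFD-HFD Late 3 in session 2, so these values are also contrasts of slides. Without HFD Early 1 the Etv4 difference was 1.25 (adjusted p = 0.0507).

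Etv5, the close relative of Etv4, was 2.47, 1.57 and 1.31 in HFD Early and 2.42, 2.29 and 2.63 in HFD-LFD Early tumors. The median late tumor was at 0.80, in a range from -0.90 to 2.79, and 5 of 18 reached the lowest early tumor. The difference was 1.08 (SE 0.39, adjusted p = 0.0547). Within HFD-LFD the early tumors all exceeded the late ones (0.52, 0.43 and 1.18), by 1.74 on average (SE 0.70, adjusted p = 0.238). Within HFD the difference was 0.55 (SE 0.61, adjusted p = 0.582), and HFD Late 3 and HFD Late 5 reached 2.62 and 2.56.

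Fosl1 leaned opposite ways under the 2 diets that gave early tumors, with neither difference past the test. Early and late tumors of each diet lay on different slides, so slide cannot be told apart from onset here. HFD Early tumors gave 0.80, 0.25 and 0.05, against a late HFD range from -0.41 to 1.25 with a median of -0.20. HFD-LFD Early tumors gave -0.14, -0.48 and -0.12, all below the late tumors of that diet at 0.96, 0.45 and 0.73. The difference was 0.34 within HFD (SE 0.30, adjusted p = 0.478) and -0.96 within HFD-LFD (SE 0.35, adjusted p = 0.194). Tested directly, these onset changes differed by 1.30 (SE 0.46, unadjusted p = 0.0111 in limma, adjusted p = 0.528). Fosl1 was dim, well above background in 21 of 24 tumors.

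**Figure D3:**
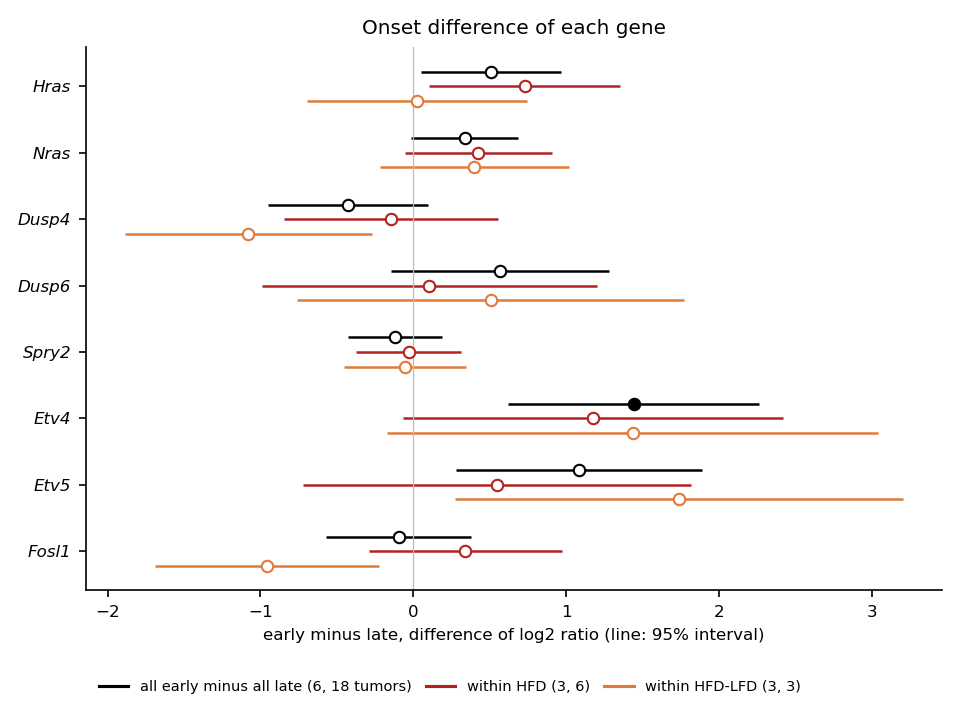
Early minus late difference of log2 ratio (horizontal axis) for each gene (vertical axis) with its 95% interval, over all tumors and within each diet that gave early tumors. Filled points passed at an adjusted p under 0.05; only Etv4 over all tumors did, at 1.44.

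Within single diets no member passed. Early and late tumors of the same diet lay on different slides, so every onset change within a diet is also a contrast of slides. Within HFD there were 0 of 8 by limma beside 13.1% of all genes (5.76% higher and 7.3% lower in early tumors), with 1 member at an unadjusted p under 0.05 (Hras) beside 30.1%. Within HFD-LFD there were 0 of 8 beside 0.807% of all genes, with 3 at an unadjusted p under 0.05 (Dusp4, Etv5 and Fosl1) beside 15.5%. For the difference between these onset changes there were 0 of 8 beside 0% of all genes, with 1 member (Fosl1) at an unadjusted p under 0.05 beside 8.11%. The intervals were wide, for Etv4 from -2.29 to 1.77, so these numbers do not exclude a large difference between the diets.

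Dusp6, Etv4 and Etv5 varied together from tumor to tumor. Among the late tumors, kept apart from the early ones so that onset does not enter, Dusp6 and Etv4 had Pearson r = 0.88 and Spearman rho = 0.89 (n = 15). Without the 2 tumors farthest from the median of Dusp6 r was 0.89, and in the 8 late tumors of session 1 it was 0.92. Dusp6 and Etv5 had r = 0.82 and rho = 0.72 (n = 18), with r = 0.69 without the 2 farthest, 0.87 in session 1 (n = 8) and 0.83 in session 3 (n = 7). Etv4 and Etv5 had r = 0.79 and rho = 0.78 (n = 15), with 0.62 without the 2 farthest. These were the highest of the 28 pairs of members. They are descriptions over tumors that share a reference RNA, with no p-value.

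Late tumors that were high in 1 of these genes tended to be high in the others. LFD Late 4 gave 2.95, 2.35 and 2.79 for Dusp6, Etv4 and Etv5, HFD Late 3 gave 1.98, 2.73 and 2.62, and HFD Late 5 gave 2.03, 1.67 and 2.56. HFD Late 2 followed at 1.39, 2.12 and 1.89. These 4 tumors are also the ones in which Spry4 was above background. The arrays of HFD Late 2 and HFD Late 3 had the highest shares of spots that rose well above background in Cy5, 87.7% and 89.2%, where the other 22 ran from 66.1% to 81.2%. Those 2 arrays share a slide. The 4 tumors together lie on 2 slides and come from mice fed LFD or HFD throughout. HFD-LFD Late 3 was also high in Dusp6 (1.74), with Etv5 at 1.18 and Etv4 measured only by its dimmer probe (1.94).

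**Figure D4:**
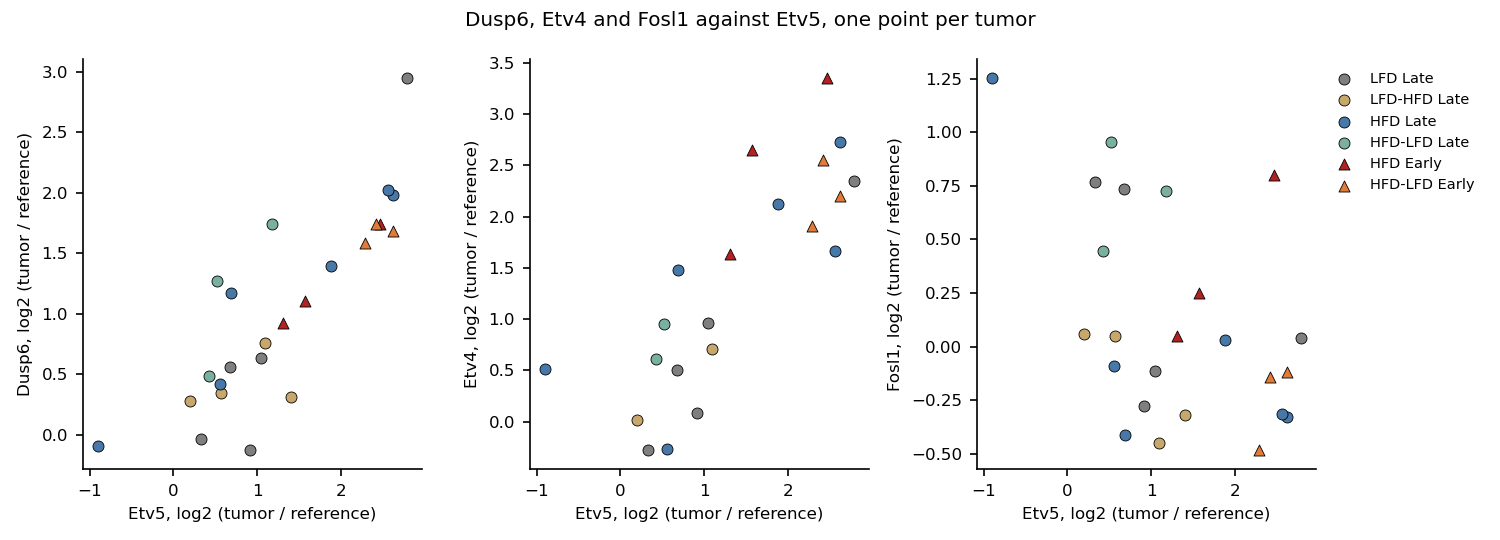
Dusp6, Etv4 and Fosl1 (vertical axes) against Etv5 (horizontal axes), all as log2 tumor over reference, with 1 point per tumor. Circles are late and triangles early tumors, coloured by diet; Dusp6 and Etv4 rise with Etv5 (r = 0.82 and 0.79 over late tumors), and Fosl1 falls with it (r = -0.57).

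Fosl1 did not follow the trio. Over late tumors its r with Etv5 was -0.57 and rho -0.62 (n = 18), with -0.78 in session 1 and -0.13 in session 3. Dusp4 had r = 0.21 with Dusp6 and -0.02 with Etv5. Hras and Nras had r = 0.01 with each other (n = 15). HFD Late 4 had the lowest Etv5 of all tumors (-0.90) and the highest Fosl1 (1.25).

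Start-site sequences for members that moved together are shown so that their letters can be compared. RefSeq promoter windows (GRCm38.p6, around the start site) were at hand for Dusp6, Etv5, Hras, Nras and Spry2. Capitals mark GGAA or its reverse complement TTCC, the core letters that ETS factors recognise, searched on both strands.
Dusp6, chr10:99262981-99263280, plus strand: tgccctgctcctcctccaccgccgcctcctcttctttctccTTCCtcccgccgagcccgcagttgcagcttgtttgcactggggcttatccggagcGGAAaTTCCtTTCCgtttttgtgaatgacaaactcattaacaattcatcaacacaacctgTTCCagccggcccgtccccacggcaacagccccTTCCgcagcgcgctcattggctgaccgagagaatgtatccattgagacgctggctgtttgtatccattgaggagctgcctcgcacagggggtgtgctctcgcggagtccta
Etv5, chr16:22438319-22438618, minus strand: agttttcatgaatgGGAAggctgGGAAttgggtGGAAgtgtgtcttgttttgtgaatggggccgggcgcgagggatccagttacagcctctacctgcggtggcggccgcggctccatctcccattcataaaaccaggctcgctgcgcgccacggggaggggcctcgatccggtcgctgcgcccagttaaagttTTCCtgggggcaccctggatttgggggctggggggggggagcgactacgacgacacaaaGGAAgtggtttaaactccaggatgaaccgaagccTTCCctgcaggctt
Each of these windows held 6 matches. The other listed Etv5 start held 0, Spry2 held 5, Hras 3 and Nras 2. GGAA occurred in 96.0% of all 32851 windows, with a median of 3 matches, so its presence does not set these genes apart. The longer ETS motif CCGGAA was in neither the Dusp6 nor either Etv5 window, was found once in the Hras and once in the Spry2 window, and occurred in 14.9% of all windows. The AP-1 motif TGANTCA was in none of the 6 windows and in 7.81% of all. A match is not a bound site, and no match says only that these letters are absent there.

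For each member the genes with the most similar pattern were listed, over all tumors and at least 20 arrays. The imprinted gene Mest came first for Dusp6 (r = 0.88), Etv4 (r = 0.91) and Etv5 (r = 0.87). Among 20847 genes, Etv5 ranked 8 for likeness to Dusp6. Fosl1 was nearest Ubap1 (r = 0.87), Ier3 (r = 0.83) and the cornified envelope gene Sprr4 (r = 0.81). Hras was nearest Uqcrc1, Mmp14 and Ppp4c (r from 0.92 to 0.93), Nras nearest Ubtd2 (r = 0.94), Dusp4 nearest Ttll5 (r = 0.77) and Spry2 nearest Avil (r = 0.84). With so many genes ranked over so few tumors, these are descriptions.

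Marker lists of cell types were set beside these results, as means over each list with no test of the mean. The mean log2 ratio of 9 luminal markers, among them Krt8, Krt18 and Esr1, ran from -0.02 to 2.32 in early tumors (median 0.41) and from -1.60 to 3.17 in late tumors (median 2.71), and 4 of the 9 were called, all lower in early tumors. The mean of 12 squamous differentiation markers ran from -3.12 to 0.0019 in early tumors (median -0.80) and from -4.29 to 2.41 in late ones (median -3.24). Of these 12, 0 were called higher and 1 lower in early tumors by limma, Sprr3 (difference -0.96, adjusted p = 0.0147), and 7 were at an unadjusted p under 0.05. The early minus late differences of 11 of the 12 were above 0, with a median of 1.37 over the list. The mean of 8 basal markers had a median of 0.21 in early and 1.16 in late tumors, with 1 called, Myh11, which was lower in early tumors (adjusted p = 0.00844). This list was split. Krt14 (1.18), Krt17 (0.64), Krt5 (0.46) and Trp63 (0.44) were higher on average in early tumors, without passing. Myh11 (-2.88), Cnn1 (-2.89), Acta2 (-1.40) and Oxtr (-0.63) were lower. The mean of 10 proliferation genes ran from 0.13 to 0.90 in early tumors (median 0.38) and from -1.25 to 1.03 in late ones (median -0.33), with 6 called, all higher in early tumors. The mean of 7 endothelial markers had a median of -1.49 in early and -0.83 in late tumors. All markers in the luminal and squamous lists had a tested probe, and each was well above background on at least 18 arrays. Some probes lay in dimmed rows and were missing in part of the late tumors. Krt1 and Gata3 were measured in 14 of 18 late tumors and Krt18 in 15. The list means of those late tumors were taken over fewer markers, which can shift the late ranges and medians. The part of the marker lists in the Etv4 difference was not tested. Within the early group, HFD Early 1 had the highest luminal mean (2.32), the lowest squamous mean (-3.12) and the highest Etv4 (3.36).

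Fosl1 went with the squamous list among late tumors, with r = 0.75 and rho = 0.57 (n = 18). Without the 2 tumors farthest from the median of Fosl1 r was 0.65, in session 1 it was 0.87 and in session 3 it was 0.69. HFD Late 4 had the highest squamous mean of all tumors (2.41) and the lowest luminal mean (-1.60). Etv4 had r = -0.11 with the squamous mean, -0.05 with the luminal mean, 0.56 with the proliferation mean and -0.50 with the basal mean (n = 15). The basal mean had r = -0.60 with Dusp6 and -0.46 with Etv5 (n = 18), -0.85 with each in session 3 (n = 7), and -0.33 and -0.26 in session 1 (n = 8). Without the 2 farthest tumors these were -0.22 for Etv4, -0.41 for Dusp6 and -0.19 for Etv5. The 7 arrays of session 3 were those with dimmed rows, and the markers missing there differed between slides. Myh11 was measured in 14 of 18 late tumors and Krt5 in 15. Each r with the squamous or basal mean in session 3 therefore rests on means over unlike sets of markers. The 8 basal markers did not all move the same way between early and late tumors. The part of basal cells in the shared pattern of the 3 genes was not tested.

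Diet was compared next. Between all HFD tumors (n = 9) and LFD tumors (n = 5) limma called 0 of 8 members, beside 0% of all genes. Dusp4 was the only member at an unadjusted p under 0.05, beside 4.58% of all genes. Its level was 0.23 ± 0.39 (SD, n = 9) on HFD and 0.72 ± 0.41 (SD, n = 5) on LFD, a difference of -0.49 (adjusted p = 0.957). Etv4 was 1.04 higher on HFD, with a 95% interval from -0.15 to 2.24 (adjusted p = 0.957), and the HFD group here contains the 3 early tumors.

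Among the 4 late groups, limma's moderated F test called 0 of 8 members, beside 2.18% of all genes, and 2 members were at an unadjusted p under 0.05 beside 20.6%. Spry2 came closest (adjusted p = 0.0599). Its LFD tumors were -0.32, -0.44, -0.12, -0.60 and 0.07, all above the LFD-HFD tumors at -0.90, -1.12, -0.96 and -0.87. HFD Late tumors averaged -0.57 ± 0.31 (SD, n = 6) and HFD-LFD Late tumors -0.82 ± 0.07 (SD, n = 3). In order of their means LFD was highest, then HFD, HFD-LFD and LFD-HFD, and each neighbouring pair in that order overlapped in range. In all, 4 of the 5 LFD tumors shared a slide that held no other group, so diet and slide cannot be told apart for most of these values. Scan session overlapped with diet too. The HFD Late tumors of session 1 gave -0.45, -0.24, -0.31 and -0.61, and those of session 3 gave -1.06 and -0.77. LFD Late 4, the only LFD tumor outside session 1, was the lowest of its group (-0.60), and no LFD-HFD tumor was scanned in session 1. Dusp4 was the other member (adjusted p = 0.207), with late means from -0.05 ± 0.70 (SD, n = 4) in LFD-HFD to 0.98 ± 0.77 (SD, n = 3) in HFD-LFD.

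Other genes of the pathway were then compared between early and late tumors. In 4 lists, 12 genes were called, 7 higher and 5 lower in early tumors. This split held for loess: with median centring all 7 higher genes were still called, at larger differences, but of the 5 lower ones only Areg was. The list of other inhibitors of the pathway held MAP kinase phosphatases, Sprouty and Spred proteins, Ras GTPase-activating proteins and others. Of the 22 tested, 2 were called, both higher in early tumors. These were Dusp9, an ERK phosphatase (difference 0.64, adjusted p = 0.0152), and Il17rd, known as Sef (0.75, adjusted p = 0.0413). Both were measured in only 14 of the 18 late tumors. Spry1, the relative of Spry2, gave 0.75 but did not pass (adjusted p = 0.125). The median of this list was -0.0028, with 11 of 22 above 0.

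Of 26 other ERK-responsive genes, 1 was called higher and 1 lower. The ETS factor Ets1 was 1.50 higher in early tumors (adjusted p = 0.000957), from a late mean of -0.04 ± 0.56 (SD, n = 18) to an early mean of 1.45 ± 0.64 (SD, n = 6). Areg, which encodes the EGF receptor ligand amphiregulin, fell by 1.86 (adjusted p = 0.0276), from 2.68 ± 1.36 (SD, n = 18) to 0.81 ± 0.96 (SD, n = 6). Etv1, the third PEA3 family gene, gave 0.05 (adjusted p = 0.953). The immediate-early genes Fos (-0.69, adjusted p = 0.082) and Egr1 (-0.32, adjusted p = 0.504) did not pass. The median of the list was 0.01, with 13 of 26 above 0.

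Of 27 tested adaptors, exchange factors and kinases from receptor to ERK and its substrate kinases, 2 were called higher and 2 lower. The ERK substrate kinase Rps6ka3 was 0.78 higher (adjusted p = 0.00728) and the docking protein gene Gab1 0.92 higher (adjusted p = 0.0217). The exchange factor gene Rasgrp3 fell by 0.77 (adjusted p = 0.00845) and the scaffold gene Ksr1 by 0.30 (adjusted p = 0.0413). With median centring Rasgrp3 was at -0.58 (adjusted p = 0.0771) and Ksr1 at -0.19 (adjusted p = 0.339), and neither passed. Of 12 tested Ras-family GTPases outside the members, 2 were called higher and 2 lower. Diras2 was 1.44 higher (adjusted p = 0.0314) and Rap2a 0.45 higher (adjusted p = 0.0251), whereas Rras fell by 0.77 (adjusted p = 0.0186) and Diras1 by 0.32 (adjusted p = 0.0469). With median centring Rras was at -0.30 (adjusted p = 0.406) and Diras1 at -0.079 (adjusted p = 0.636), and neither passed. Of these called genes, Ksr1, Rras and Diras1 were measured in 14 of the 18 late tumors, and Rasgrp3 and Rap2a in 15. The list counts stand beside 17.6% of all genes called in this comparison. With slide as a random block, Ets1, Dusp9, Rps6ka3, Rasgrp3 and Rras were still called, with adjusted p from 0.0102 to 0.0494, and Gab1 (0.073), Areg (0.0688), Diras2 (0.0728), Rap2a (0.0704), Ksr1 (0.0796), Il17rd (0.108) and Diras1 (0.188) had an adjusted p above the threshold.

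**Figure D5:**
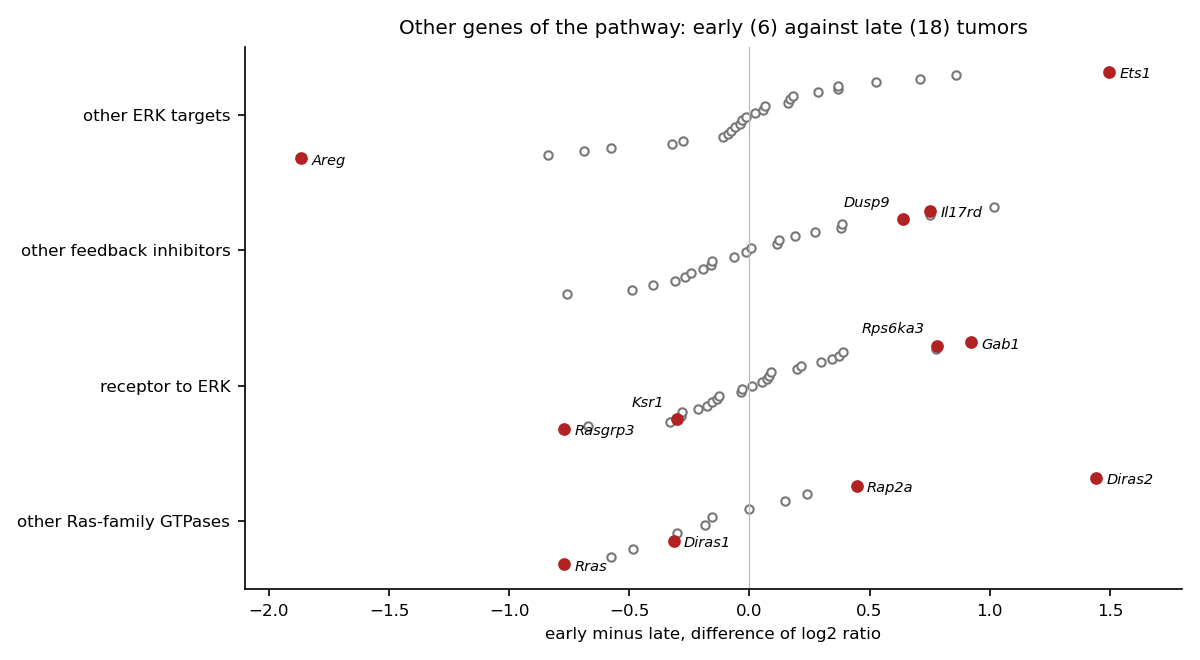
Early minus late difference of log2 ratio (horizontal axis) for the other genes of the pathway, 1 point per gene, in 4 lists (vertical axis). The list labelled feedback inhibitors also holds Ras GTPase-activating proteins and others, and that labelled receptor to ERK also holds substrate kinases of ERK. Filled points passed at an adjusted p under 0.05 and are named; after loess they run from Areg at -1.86 to Ets1 at 1.50, and with median centring Rras, Rasgrp3, Ksr1 and Diras1, all below 0, were no longer called.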

How the data were processed

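Total RNA of 24 DMBA-induced mammary tumors was hybridised by the authors against a universal reference on 2-colour Agilent arrays. The authors deposited scanner output: linear mean and local background intensity of each spot in Cy5 and Cy3, and the scanner software's own log10 ratio of Cy5 over Cy3, already dye-normalized, which served here as an alternative. The labels name Agilent Feature Extraction 8.5.1.1 and the file headers give 11.0.1.1 and build mm9.

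In limma 3.58.1 (R 4.3.3), background was corrected by normexp (offset 50, flagged spots left out of the fit) and arrays were normalized by loess. Bands of 10 rows whose median Cy5 over Cy3 lay more than 0.3 (log2) below the array's were set missing on 7 arrays, with no imputation, unlike the study's methods; this touched the probes of 43.5% of genes tested. Probes with signal over 10 in both channels on 80% of undimmed arrays were kept (27272 of 39429), and each of 20938 genes was represented by its brightest probe on average. Names came from RefSeq by accession (27234 probes), symbol (3576) or older symbol (565), and otherwise from the file (8054). Groups came from the labels. Early against late, and HFD against LFD, were fitted as 2 classes. Contrasts within diets and the F test among late groups came from 1 fit of 6 group means. Genes were called at an adjusted p under 0.05 (Benjamini-Hochberg). Dye effects cannot be separated, since no array had swapped dyes. Fits were tested on simulated data.

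The members and gene lists were chosen with earlier results of these data known. All 9 members were described with every probe. From each pathway list, genes called between early and late were named (at most 6), and the rest that appear were chosen after their values were seen. Alternatives covered the ratio, background correction, normalization, dimmed rows, imputation, filters, choice of probe, weights, slide and scan session, and each array left out in turn.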

Additional observations from a re-analysis of the deposited data

Results flagged for a closer look

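Over the 8 tested members, the LFD, HFD Late and LFD-HFD groups and all early tumors together were examined where at least 4 tumors had a value. Of these 30 sets, 3 held a tumor far from the others by Dixon's test, and chance marks about 1 in 20 such sets. In the LFD group the Dusp6 log2 ratio of LFD Late 4 was 2.95, and the next tumor was at 0.64. In the LFD-HFD group that of LFD-HFD Late 3 was 0.76, and the next was at 0.35. In the HFD Late group the Fosl1 log2 ratio of HFD Late 4 was 1.25, and the next was at 0.03. Without LFD Late 4 the early minus late difference of Dusp6 was 0.69 in place of 0.57.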

How the results depend on the processing

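Of the 8 members, 1 was called between early and late tumors in the analysis as reported. The count was 0 with slide as a random block, with slide as a fixed block and within scan session 1. It was 2 with normexp fitted on all spots, with the arrays of the dimmed slides left out, with the mean over the probes of a gene, with array quality weights and within scan session 2, 3 with scan session as a fixed block, and 4 with median centring in place of loess. With each array left out in turn it ran from 0 (without HFD Early 1) to 2 (without LFD Late 4, HFD Late 3 or HFD Late 5). Etv4 kept its direction in all 19 settings and was called in 16, and Etv5 was called in 6, Hras in 2 and Nras in 2. Within HFD the count of 0 became 1 with median centring and 1 with array quality weights. Array quality weights also gave 2 within HFD-LFD, 1 for the difference between the onset changes, and 3 for diet among late tumors, where leaving out arrays gave 0 to 1 (without LFD Late 4 or HFD Late 5). Between HFD and LFD 0 members were called in all 17 settings. Fosl1 changed sign between early and late with slide as a fixed block (0.20), within scan session 1 (0.12) and without HFD-LFD Early 2 (0.014, in a range from -0.24 to 0.014 with arrays left out), and Spry2 with slide as a fixed block (0.078). The slide values compare 3 HFD-LFD Early tumors with the single late tumor on their slide, LFD-HFD Late 3, so their sign says little about early against late tumors as a whole. The causes of the other changes were not tested.

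Over the whole table the early against late count of 3676 genes ran from 72 (slide as a fixed block) to 6616 (array quality weights), and from 2028 (without HFD Early 2) to 4534 (without LFD Late 3) with arrays left out. Within HFD it ran from 697 (slide as a random block) to 8314 in place of 2734, within HFD-LFD from 2 (slide as a fixed block) to 2246 in place of 169, among late diets from 24 (slide as a random block) to 4289 in place of 456, and for the difference between the onset changes from 0 to 489, each highest with array quality weights. The 12 pathway genes named as called were refitted under 7 settings chosen after seeing the data and kept their direction in all. Ets1, Gab1 and Rps6ka3 were called in 6 of these, Diras2, Dusp9, Rap2a and Rras in 5, Areg, Il17rd and Rasgrp3 in 4, and Diras1 and Ksr1 in 1. With slide as a random block Ets1, Dusp9, Rps6ka3, Rasgrp3 and Rras were still called, and median centring lost Rras, Rasgrp3, Ksr1 and Diras1. With slide as a fixed block, the contrast within HFD and the difference between the onset changes could not be fitted, since no slide links the HFD Early tumors to others. No paired analysis was possible because the labels give no replicate numbers shared between groups.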
